A study of Mus musculus with 20 samples.

Results

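TGF-β, BMP and cushion genes are 44 of the 48795 genes in the deposited table of mouse embryonic hearts. They were chosen by name and comprise 9 ligands, 10 receptors and coreceptors, 8 Smads, 3 Id genes, 5 extracellular antagonists and latent binding proteins, and 9 transcription factors of the cushion and of the epithelial to mesenchymal transition (EMT). Genes whose normalized count averaged 10 or more across all 20 hearts were tested, and all 44 were among these 15304 genes. The list was drawn up by pathway and role, with earlier results of these data known.

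RNA of whole hearts from E13.5 embryos was sequenced as mRNA libraries, with 10 WT, 5 Dp1Tyb and 5 Dp1TybDyrk1a+/+/- hearts. Dp1Tyb embryos carry an extra copy of the stretch of chromosome 16 from Lipi to Zbtb21, a mouse model of Down syndrome. Dp1TybDyrk1a+/+/- embryos carry the same duplication with a deleted allele of Dyrk1a on the duplicated chromosome, so that 2 intact copies of this kinase gene remain, and their strain goes back to 1 pup with a crossover. All mice were on a C57BL/6J background, the WT hearts came from littermates of both mutant strains, and the labels do not say which WT heart belongs to which strain, so all 10 entered each comparison with WT. The mutant strains were kept separately, so between both mutant groups Dyrk1a copy number cannot be told apart from strain or litter. None of the 44 genes lies in the duplicated region. Snai2, the 1 member on chromosome 16, lies at chr16:14705852-14709395 of GRCm38.p6, outside the region, which runs from 75540514 to 97962627.

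Ligands of the TGF-β family bind a type II receptor, which activates a type I receptor, which phosphorylates receptor Smads. Smad2 and Smad3 carry TGF-β and activin signals, Smad1, Smad5 and Smad9 carry BMP signals, and both kinds enter the nucleus with Smad4, while Smad6 and Smad7 inhibit the pathway. In the embryonic heart these signals act on the endocardium of the atrioventricular canal and outflow tract, where cells undergo EMT and form the cushions from which valves and septa develop.

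The promoter sequences of 3 members are shown as a description, and the members were chosen by their P-value or level in these data. Acvr2a was the 1 member past the threshold, Bmp5 was the ligand with the smallest P-value, and Id3 is a direct target of BMP Smads with the highest level per length of all members. Each run is the 250 bases before the transcription start in RefSeq for GRCm38.p6, 5′ to 3′ on the + strand, at chr2:48813859-48814108 for Acvr2a, chr9:75775115-75775364 for Bmp5 and chr4:136143572-136143821 for Id3. Capitals mark GTCTG, the core of a Smad binding site, on either strand.
Acvr2a: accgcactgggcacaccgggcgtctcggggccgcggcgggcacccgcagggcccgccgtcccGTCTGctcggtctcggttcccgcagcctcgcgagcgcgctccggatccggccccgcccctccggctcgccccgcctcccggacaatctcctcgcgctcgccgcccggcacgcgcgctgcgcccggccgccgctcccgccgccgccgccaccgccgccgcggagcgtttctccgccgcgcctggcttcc
Bmp5: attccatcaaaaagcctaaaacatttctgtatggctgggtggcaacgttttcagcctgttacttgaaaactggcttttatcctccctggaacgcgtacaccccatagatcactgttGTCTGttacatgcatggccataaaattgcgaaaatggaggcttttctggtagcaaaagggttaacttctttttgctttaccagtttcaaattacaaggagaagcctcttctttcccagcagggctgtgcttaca
Id3: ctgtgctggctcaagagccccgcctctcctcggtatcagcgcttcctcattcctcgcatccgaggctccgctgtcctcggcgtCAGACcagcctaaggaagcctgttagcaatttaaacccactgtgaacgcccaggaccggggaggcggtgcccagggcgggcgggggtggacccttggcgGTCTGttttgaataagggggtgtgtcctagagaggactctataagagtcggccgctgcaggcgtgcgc

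Acvr2a and Bmp5 had 1 match to GTCTG each and Id3 had 2, while GGCGCC, a BMP Smad site that reads the same on both strands, and CAGGTG, an E-box of the kind that Snail and Zeb factors bind, had no match in these 3 windows. The windows differed widely in base composition, with a GC content of 82.0% for Acvr2a, 62.8% for Id3 and 42.8% for Bmp5. RefSeq windows matched 30 members, with 37 windows in all. GTCTG was found on either strand in 15 of the 37 (40.5%), against 42.2% of 32851 mouse windows of the same length and 40.6% of windows of tested genes. GGCGCC was found in 7 (18.9%), against 9.59% of all windows and 16.3% of the 14222 windows of tested genes. CAGGTG was found in 5 of the 37, against 17.2% of all windows. No sequence is given for Tgfb3, Tgfbr3, Bmp2, Bmp7, Acvrl1, Smad2, Smad4, Smad7, Id1, Nog, Fst, Snai2, Sox9 and Zeb1.

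The deposited values are log2 normalized counts, and genotypes were compared with limma, calling a gene past the threshold when its P-value, adjusted over all 15304 genes by Benjamini-Hochberg, was under 0.05. The depth of the libraries cannot be read from such values, and errors come from the spread among hearts of a genotype. Dp1TybDyrk1a+/+/- replicate 2 stood apart from the other hearts of its group, with a mean absolute log2 deviation from their median of 0.157 over all tested genes, as did WT replicate 6 with 0.0933, while the other 18 hearts were between 0.0391 and 0.0626. Where the call of a member changed without these 2 hearts, both fits are given. From Y-linked genes, 7 of 10 WT, 1 of 5 Dp1Tyb and 4 of 5 Dp1TybDyrk1a+/+/- embryos were male. Lanes 3, 6 and 7 held 4, 4 and 2 WT, 2, 2 and 1 Dp1Tyb, and 1, 1 and 3 Dp1TybDyrk1a+/+/- hearts. The log2 value of Dyrk1a was 11.37 ± 0.044 in the 10 WT hearts, 11.69 ± 0.040 in the 5 Dp1Tyb hearts and 11.76 ± 0.056 in the 5 hearts labelled Dp1TybDyrk1a+/+/- (mean ± SD), and since a value for the whole gene also counts RNA from outside the deleted part of the allele, it does not check that label. Every listed marker of cardiomyocytes, endocardium, fibroblasts, epicardium, smooth muscle, macrophages, red cells and neural crest passed the filter, as did 3 of 5 of lung and liver. In WT hearts the log2 of the summed normalized counts was 5.84 to 6.15 for these 3 and 18.75 to 19.16 for the cardiomyocyte markers. Of the 57 marker genes tested 0 were called in any comparison (limma). At an unadjusted P-value under 0.05 there were 8 in Dp1Tyb against WT, 4 in Dp1TybDyrk1a+/+/- against WT and 6 in Dp1Tyb against Dp1TybDyrk1a+/+/-. Over all genes, 3.08%, 0.712% and 1.16% were called in these comparisons, and 15.6%, 9.64% and 18.5% had an unadjusted P-value under 0.05. In whole hearts, fewer cells of a type and less RNA per cell cannot be told apart.

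In WT hearts the level per length, the log2 normalized count per kb of exon, spanned a wide range among members. It was highest for Id3 at 9.45 ± 0.15 (SD, n = 10), followed by Bmpr1a at 9.37 ± 0.049 and Id2 at 9.32 ± 0.053 (SD, n = 10 each), which differed by less than the spread of Id3. Bmp7 at 9.08 ± 0.10 and Ltbp1 at 9.03 ± 0.090 (SD, n = 10 each) followed and were not separated beyond their spread either. The lowest was Grem1, a BMP antagonist, at 1.62 ± 0.051, below Twist2 at 3.56 ± 0.12 and Acvr2b at 3.66 ± 0.093 (SD, n = 10 each). On this scale 1 unit is a doubling. The length counts all annotated exons, 10735 bases for Ltbp1 against 6718 in its longest transcript, and 3485 against 3195 for Id2. The order of members thus depends on the length used.

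**Figure D1:**
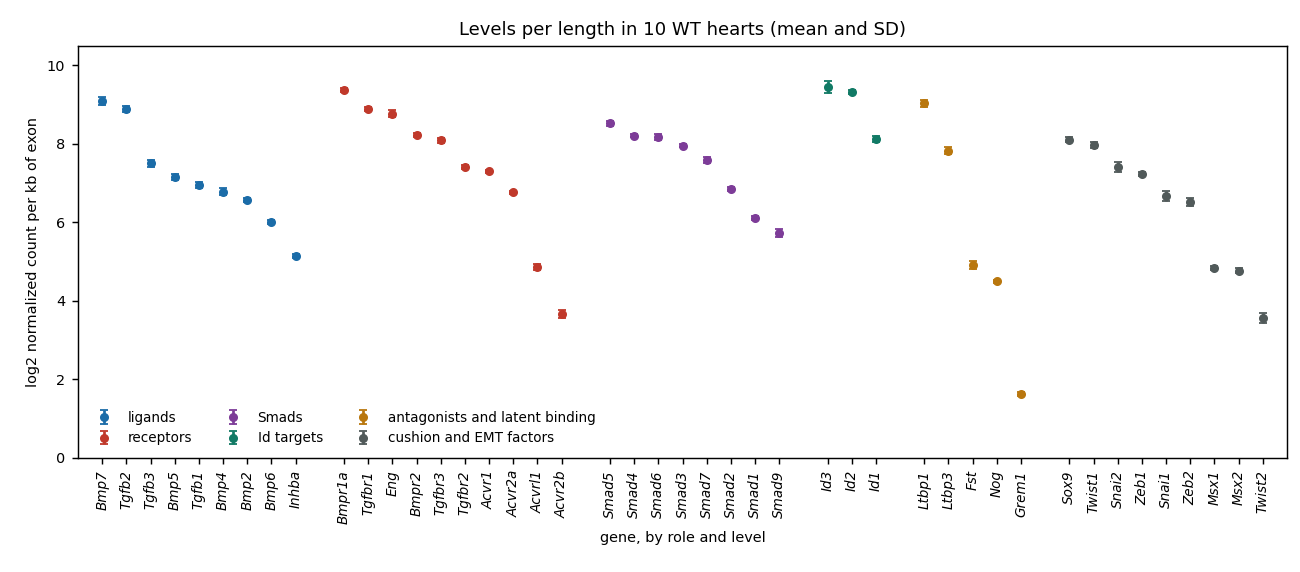
Level of each of the 44 genes per kb of exon (log2 normalized count per kb, y axis) in 10 WT hearts, by role along the x axis. Points are means and bars are SD. Id3, Bmpr1a and Id2 were highest, and Grem1, at 1.62, was the lowest.

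Among the ligands, the level per length ran from 9.08 for Bmp7 and 8.89 for Tgfb2 to 6.0 for Bmp6 and 5.13 for Inhba, which encodes the activin A subunit. Among receptors the shared type I receptor of the TGF-βs, Tgfbr1, was at 8.88 and its type II partner Tgfbr2 at 7.41. The main BMP type I receptor Bmpr1a was at 9.37, and Acvrl1, a type I receptor of endothelium, was at 4.86. Among the Smads, Smad5 at 8.53 was above Smad1 at 6.11 and Smad9 at 5.73, so Smad5 was the most abundant RNA of the BMP Smads. Among cushion factors Sox9 was at 8.11 ± 0.067 and Twist1 at 7.96 ± 0.074 (SD, n = 10 each), against 4.83 for Msx1 and 4.77 for Msx2, homeobox targets of BMP signals.

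Between Dp1Tyb and WT hearts, 1 of the 44 genes was past the threshold: Acvr2a, an activin and BMP type II receptor, was lower in Dp1Tyb hearts. That is 2.27% of the members, and of all 15304 genes 3.08% were called. At an unadjusted P-value under 0.05 there were 9 members (20.5%), against 15.6% of all genes. The hearts of both groups did not overlap for 2 members, Acvr2a and Grem1 (4.55%), against 2.63% of all genes. The median difference over the members was 0.030, with 29 above 0 and 15 below. Over all genes it was -0.0019, with 7419 of 15304 above 0. Without both hearts that stood apart 4 members were called, Tgfbr3, Acvr2a, Smad6 and Sox9, against 7.7% of all genes in that fit, and the median over the members was 0.023. The 95% intervals of all 44 differences lay between -0.21 and 0.28 on the log2 scale.

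Between Dp1TybDyrk1a+/+/- and WT hearts, 0 members were past the threshold in limma, against 0.712% of all genes. At an unadjusted P-value under 0.05 there were 6 (13.6%), against 9.64% of all genes. No member had hearts that did not overlap, against 0.64% of all genes. The median difference was 0.017, and -0.0030 over all genes, and all 44 intervals lay between -0.29 and 0.22. Without both hearts that stood apart the median was -0.013, and 1 member, Bmp5, was called, against 1.39% of all genes in that fit.

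Between Dp1Tyb and Dp1TybDyrk1a+/+/- hearts, 0 members were past the threshold in limma, against 1.16% of all genes. At an unadjusted P-value under 0.05 there were 11 (25%), against 18.5% of all genes. Bmpr1a and Acvr2a had hearts that did not overlap (4.55%), against 5.65% of all genes. The median difference was 0.013, with 26 of 44 above 0, and 0.0028 over all genes, with 7958 of 15304 above 0. The intervals ran from -0.30 for Bmpr2 to 0.41 for Id3. Without both hearts that stood apart, 2 members were called, Tgfbr2 and Bmpr1a, against 3.96% of all genes in that fit. The median there was 0.035 over the members, with 30 of 44 above 0, and 6.8e-05 over all genes.

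**Figure D2:**
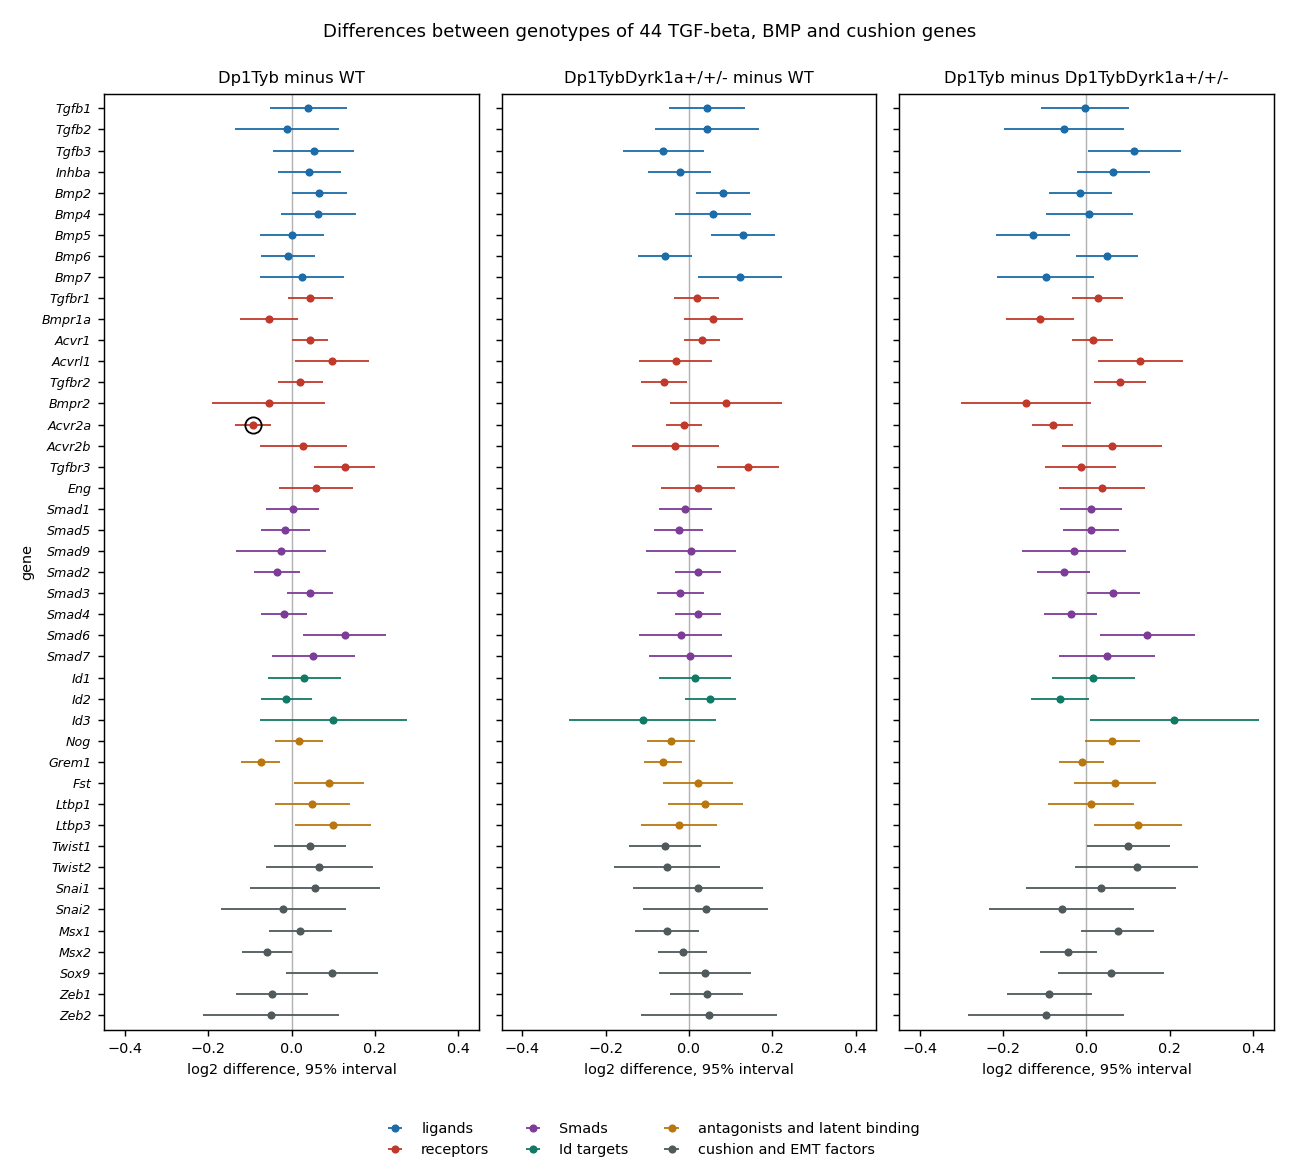
Log2 difference between genotypes (x axis) for each of the 44 genes (y axis), in 3 panels for the 3 comparisons. Points are estimates, bars are 95% intervals from limma, colours are roles, and the open ring marks Acvr2a in Dp1Tyb minus WT, the 1 difference with an adjusted P-value under 0.05.

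Among the 9 ligands, 0 were past the threshold in any of the 3 comparisons (limma), with 1, 3 and 2 at an unadjusted P-value under 0.05 in Dp1Tyb against WT, Dp1TybDyrk1a+/+/- against WT and Dp1Tyb against Dp1TybDyrk1a+/+/-. Over all genes these shares were 15.6%, 9.64% and 18.5%, and the counts for the other roles follow the same order. Bmp5, a BMP ligand that acts together with Bmp7 in the developing heart (ENSMUSG00000032179, chr9:75775365-75900316 of GRCm38.p6), had the smallest P-value. Its log2 value ran from 9.06 to 9.29 in WT hearts, with a median of 9.18. It was 9.16, 9.19, 9.14, 9.26 and 9.13 in the Dp1Tyb hearts. In the Dp1TybDyrk1a+/+/- hearts it was 9.25, 9.27, 9.33, 9.38 and 9.29. The last group sat in the upper part of the WT range or above it, with 2 hearts above all WT hearts, and 4 of 5 Dp1Tyb hearts lay below all of its hearts. The difference between Dp1TybDyrk1a+/+/- and WT was 0.13 (SE 0.037, limma adjusted P-value 0.17), and that between Dp1Tyb and Dp1TybDyrk1a+/+/- was -0.13 (SE 0.043, limma adjusted P-value 0.12). Without both hearts that stood apart the former was 0.15 (limma adjusted P-value 0.046, with a range of 0.027 to 0.52 over the alternatives). It passed in 2 of 32 alternatives and missed the threshold with lane as a covariate. Lane 7 held 3 of the 5 Dp1TybDyrk1a+/+/- hearts, and its 2 WT hearts were at 9.26 and 9.24.

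Bmp7, which acts with other BMPs in cushion and septum formation (ENSMUSG00000008999, chr2:172868012-172940321), had the highest level per length among the ligands. Its log2 value ran from 11.07 to 11.42 in WT hearts, with a median of 11.23. It was 11.25, 11.26, 11.24, 11.24 and 11.28 in Dp1Tyb hearts and 11.29, 11.53, 11.34, 11.37 and 11.22 in Dp1TybDyrk1a+/+/- hearts. The Dp1Tyb hearts were closely spaced in the middle of the WT range, while 1 heart of the other mutant group, replicate 2, lay above all WT hearts. The difference between Dp1TybDyrk1a+/+/- and WT was 0.12 (95% interval 0.022 to 0.22, limma adjusted P-value 0.40), and without both hearts that stood apart it was 0.098.

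Bmp2, the myocardial signal that starts cushion EMT in the atrioventricular canal, was 8.78 ± 0.060 (SD, n = 10) in WT, 8.85 ± 0.061 in Dp1Tyb and 8.86 ± 0.041 in Dp1TybDyrk1a+/+/- hearts (SD, n = 5 each). The differences to WT of 0.067 and 0.082 share the same WT hearts, and neither passed (limma adjusted P-values 0.31 and 0.39). Tgfb2, the TGF-β most tied to cushion formation, was 11.54 ± 0.077 (SD, n = 10), 11.53 ± 0.062 and 11.58 ± 0.21 (SD, n = 5 each), with an interval of -0.14 to 0.11 for Dp1Tyb against WT. The spread in the last group came with replicate 2 at 11.94, the highest of all 20 hearts. Tgfb3, another TGF-β of cushion and valve cells, was 9.89 ± 0.083 (SD, n = 10), 9.94 ± 0.047 and 9.82 ± 0.13 (SD, n = 5 each). The remaining ligands, Tgfb1, Inhba, Bmp4 and Bmp6, differed from WT by between -0.058 and 0.064 in either mutant group.

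Among the 10 receptors and coreceptors, Acvr2a (ENSMUSG00000052155, chr2:48814109-48903264 of GRCm38.p6) was past the threshold in Dp1Tyb against WT hearts and no receptor in the other comparisons, with 4, 2 and 4 receptors at an unadjusted P-value under 0.05 (all genes 15.6%, 9.64% and 18.5%). Its log2 value ran from 10.05 to 10.16 in WT hearts, with a median of 10.08. Among the Dp1Tyb hearts it was 10.02 in replicate 2, 9.98 in replicate 3 and 10 to the second decimal in replicates 1, 4 and 5. In Dp1TybDyrk1a+/+/- hearts it was 10.04, 10.13, 10.06, 10.07 and 10.10. Every Dp1Tyb heart lay below all hearts of both other groups, and the hearts of these other groups overlapped.

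The difference between Dp1Tyb and WT was -0.093 (SE 0.020, 95% interval -0.14 to -0.050), 0.938-fold, with a limma adjusted P-value of 0.013. The difference to Dp1TybDyrk1a+/+/- hearts was -0.081 (SE 0.024), with a limma adjusted P-value of 0.0875. Between Dp1TybDyrk1a+/+/- and WT hearts it was -0.012 (95% interval -0.055 to 0.031). Acvr2a had the smallest spread within groups of all members, with a pooled SD of 0.032, so this small difference was larger than the spread between hearts. Within lanes 3, 6 and 7 the difference between Dp1Tyb and WT was -0.058, -0.11 and -0.13. These rest on 2, 2 and 1 Dp1Tyb hearts and 4, 4 and 2 WT hearts.

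The call of Acvr2a moved with embryo sex and with base composition. With embryo sex as a covariate the difference was -0.077 (limma adjusted P-value 0.088), and it was -0.064 among female embryos (4 Dp1Tyb, 3 WT) and -0.11 among male embryos (1 Dp1Tyb, 7 WT). After correcting each heart for the GC content of the transcripts it was -0.070 (limma adjusted P-value 0.052), and without Dp1Tyb replicate 3 it was -0.087 (limma adjusted P-value 0.052). The adjusted P-value ran from 0.00057 to 0.088 over the 32 alternatives. At 38.4%, the GC content of the Acvr2a transcript was the lowest among the members. The part of GC content and of sex in this difference beyond these fits was not tested.

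Bmpr1a, the type I receptor needed for BMP signals in cushion formation (ENSMUSG00000021796, chr14:34411061-34503336), had the highest level per length among the receptors. Its log2 value ran from 12.28 to 12.46 in WT hearts, with a median of 12.32. It was 12.28, 12.29, 12.26, 12.30 and 12.24 in Dp1Tyb hearts and 12.36, 12.56, 12.36, 12.31 and 12.35 in Dp1TybDyrk1a+/+/- hearts. Both mutant groups did not overlap, by a narrow margin, and each overlapped the WT hearts. The difference between the mutant groups was -0.11 (SE 0.039, limma adjusted P-value 0.13). Without both hearts that stood apart it was -0.068 and passed (limma adjusted P-value 0.0429, with a range of 0.0429 to 0.43 over the alternatives).

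Tgfbr3, betaglycan, a coreceptor that presents TGF-β2 (ENSMUSG00000029287, chr5:107106567-107289629), had the largest positive difference to WT in both mutant groups. It was 10.86 ± 0.058 (SD, n = 10) in WT, 10.99 ± 0.082 in Dp1Tyb and 11.01 ± 0.066 in Dp1TybDyrk1a+/+/- hearts (SD, n = 5 each). The differences of 0.13 (SE 0.035, limma adjusted P-value 0.052) and 0.14 (SE 0.035, limma adjusted P-value 0.077) share the WT hearts and missed the threshold. Against Dp1Tyb hearts the difference of -0.014 had an interval of -0.099 to 0.071. In Dp1Tyb against WT, Tgfbr3 passed in 11 of 32 alternatives, with limma adjusted P-values of 0.0052 to 0.175 over all of them. Among the 11 were the fit with lane as a covariate (limma adjusted P-value 0.0052) and the fit corrected for GC content. Without both hearts that stood apart the difference was 0.13 and passed (limma adjusted P-value 0.0286). Within lanes 3, 6 and 7 the difference was 0.13, 0.12 and 0.13, from 2, 2 and 1 Dp1Tyb hearts.

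Of the other receptors, Acvrl1 was 7.78 ± 0.086 (SD, n = 10) in WT, 7.87 ± 0.080 in Dp1Tyb and 7.74 ± 0.064 (SD, n = 5 each) in Dp1TybDyrk1a+/+/- hearts. Tgfbr2 was 10.55 ± 0.046 (SD, n = 10), 10.57 ± 0.030 and 10.49 ± 0.056 (SD, n = 5 each). The difference of 0.081 between both mutant groups missed the threshold for Tgfbr2 (limma adjusted P-value 0.16) and, without both hearts that stood apart, was 0.10 and passed (limma adjusted P-value 0.0332, with a range of 0.0109 to 0.464 over the alternatives). Bmpr2, the main BMP type II receptor, was 12.39 ± 0.054 (SD, n = 10), 12.34 ± 0.075 and 12.48 ± 0.24 (SD, n = 5 each), with Dp1TybDyrk1a+/+/- replicate 2 at 12.91. Its difference between the mutant groups was -0.14, and -0.038 without both hearts that stood apart. Acvr1, Tgfbr1, Acvr2b and Eng, the endothelial coreceptor endoglin, differed from WT by between -0.033 and 0.060 in either mutant group.

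**Figure D3:**
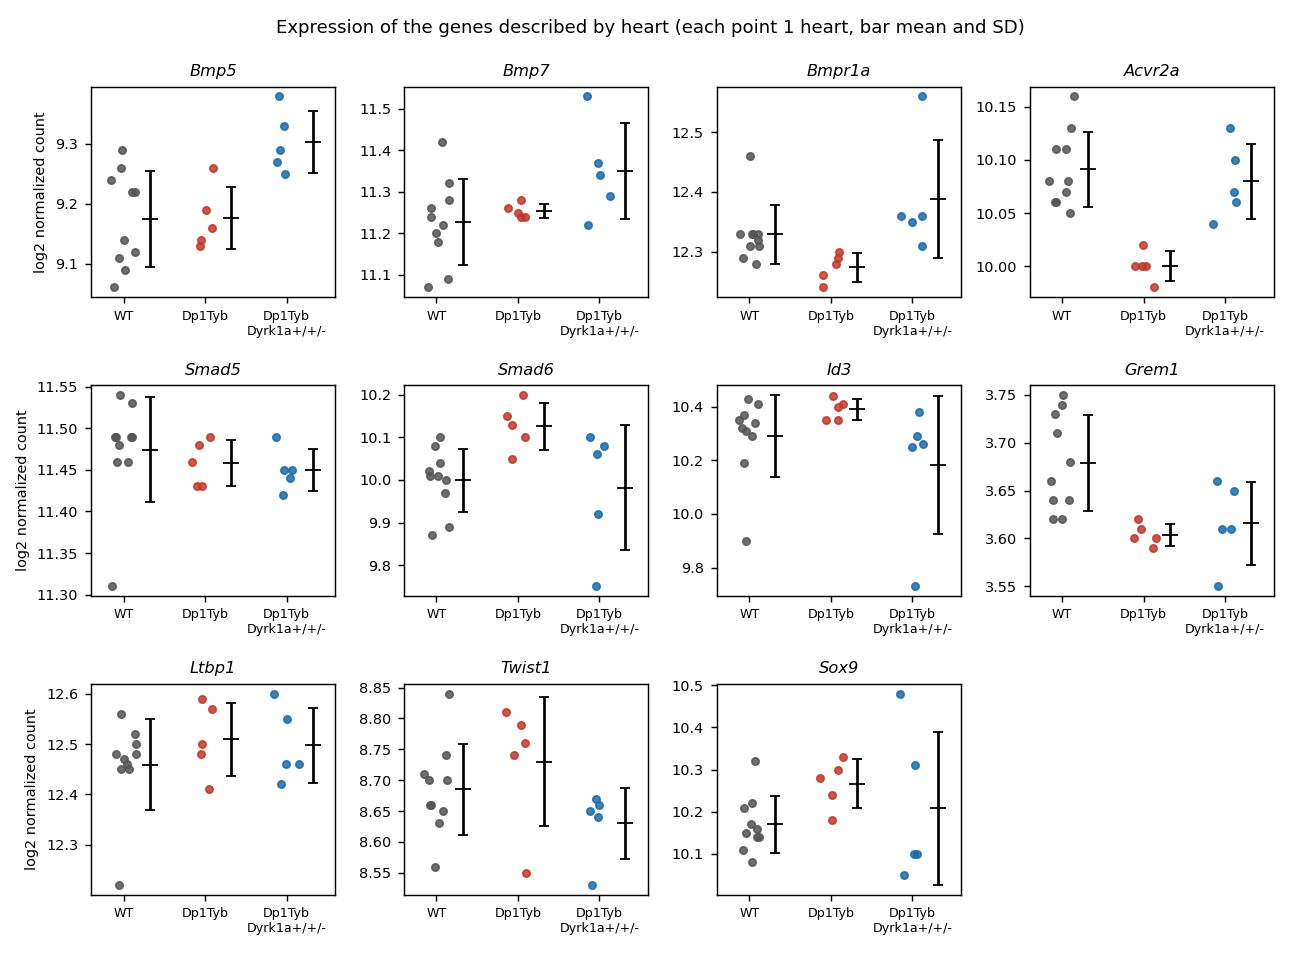
Log2 normalized count (y axis) of 11 members in each heart, by genotype along the x axis. Each point is 1 heart and the bar beside each group is the mean with SD. For Acvr2a the 5 Dp1Tyb hearts lie below all others, and for Id3 the lowest point of the Dp1TybDyrk1a+/+/- group, 9.73, is replicate 2.

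Among the 8 Smads, 0 were past the threshold in any comparison (limma), with 1, 0 and 2 at an unadjusted P-value under 0.05 (all genes 15.6%, 9.64% and 18.5%). Smad6, the inhibitory Smad that BMP signals induce (ENSMUSG00000036867, chr9:63953076-64022085), had the smallest P-value. Its log2 value ran from 9.87 to 10.10 in WT hearts, with a median of 10.01. It was 10.05, 10.15, 10.13, 10.10 and 10.20 in Dp1Tyb hearts. In Dp1TybDyrk1a+/+/- hearts it was 10.10, 9.75, 10.06, 10.08 and 9.92. Of the Dp1Tyb hearts, 4 of 5 lay above all WT hearts. The difference to WT was 0.13 (SE 0.048, limma adjusted P-value 0.18), and without both hearts that stood apart it was 0.11 and passed (limma adjusted P-value 0.041, with a range of 0.029 to 0.44 over the alternatives).

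Smad5, the BMP Smad with the highest level per length (ENSMUSG00000021540, chr13:56703010-56742378), ran from 11.31 to 11.54 in WT hearts, with a median of 11.49. It was 11.49, 11.43, 11.43, 11.46 and 11.48 in Dp1Tyb hearts and 11.45, 11.49, 11.44, 11.42 and 11.45 in Dp1TybDyrk1a+/+/- hearts. All 3 groups overlapped, and the intervals of the differences to WT ran from -0.073 to 0.044 and from -0.084 to 0.034. Smad4, the common partner, was 11.07 ± 0.034 (SD, n = 10), 11.05 ± 0.050 and 11.09 ± 0.064 (SD, n = 5 each), with an interval of -0.073 to 0.038 for Dp1Tyb against WT. The TGF-β Smads Smad2 and Smad3 differed from WT by -0.034 and 0.044 in Dp1Tyb hearts, and by 0.021 and -0.021 in Dp1TybDyrk1a+/+/- hearts. Smad7, the inhibitory Smad induced by TGF-β, differed by 0.052 and 0.0029. Smad1 and Smad9 differed from WT by between -0.025 and 0.0044.

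Id1, Id2 and Id3 encode inhibitors of basic helix-loop-helix factors and are induced by BMP Smads, and 0 of the 3 were past the threshold in any comparison (limma), with 0, 0 and 1 at an unadjusted P-value under 0.05 (all genes 15.6%, 9.64% and 18.5%). Id3 (ENSMUSG00000007872, chr4:136143822-136145392) ran from 9.90 to 10.43 in WT hearts, with a median of 10.33. It was 10.35, 10.44, 10.41, 10.40 and 10.35 in Dp1Tyb hearts and 10.38, 9.73, 10.26, 10.29 and 10.25 in Dp1TybDyrk1a+/+/- hearts. The low values, 9.90 and 9.73, were those of WT replicate 6 and Dp1TybDyrk1a+/+/- replicate 2, the 2 hearts that stood apart. Id3 had the largest pooled SD of all members, 0.17. The difference between the mutant groups was 0.21 (95% interval 0.0073 to 0.41, limma adjusted P-value 0.25), the largest positive one of any member in any comparison, and it was 0.098 without both hearts. Id1 differed from WT by 0.031 in Dp1Tyb hearts (95% interval -0.055 to 0.12) and by 0.015 in Dp1TybDyrk1a+/+/- hearts. Id2 differed by -0.012 (95% interval -0.073 to 0.048) and 0.051.

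Among the 5 antagonists and latent binding proteins, 0 were past the threshold in any comparison (limma), with 3, 1 and 1 at an unadjusted P-value under 0.05 (all genes 15.6%, 9.64% and 18.5%). Grem1, gremlin, a secreted BMP antagonist (ENSMUSG00000074934, chr2:113748675-113758648), had the smallest P-value, at the lowest level of all members. Its log2 value ran from 3.62 to 3.75 in WT hearts, with a median of 3.67. It was 3.60, 3.61, 3.62, 3.59 and 3.60 in Dp1Tyb hearts and 3.61, 3.66, 3.61, 3.55 and 3.65 in Dp1TybDyrk1a+/+/- hearts. All Dp1Tyb hearts lay below all WT hearts, although the nearest hearts of both groups were each at 3.62 when rounded. The difference was -0.074 (SE 0.022, limma adjusted P-value 0.083, with a range of 0.027 to 0.185 over the alternatives). The mean normalized count of Grem1 in WT hearts was 12.8, near the filter. Among all tested genes with log2 values from 3 to 6 the median pooled SD was 0.042, below that of genes at higher levels, 0.061 to 0.068, and the part of the authors' transformation in this was not tested.

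Ltbp1, which holds latent TGF-β in the matrix (ENSMUSG00000001870, chr17:75005480-75392512), had the highest level per length of this group. It ran from 12.22 to 12.56 in WT hearts, with a median of 12.47. It was 12.57, 12.48, 12.41, 12.50 and 12.59 in Dp1Tyb hearts and 12.55, 12.60, 12.46, 12.46 and 12.42 in Dp1TybDyrk1a+/+/- hearts. All groups overlapped, with an interval of -0.040 to 0.14 for Dp1Tyb against WT. Ltbp3, a related protein, was 11.05 ± 0.089 (SD, n = 10), 11.15 ± 0.061 and 11.02 ± 0.094 (SD, n = 5 each). Fst, follistatin, which binds activins, was 7.15 ± 0.091 (SD, n = 10), 7.24 ± 0.056 and 7.17 ± 0.054 (SD, n = 5 each). Neither passed in any comparison. Nog, noggin, which binds BMPs, was 5.25 ± 0.044 (SD, n = 10), 5.27 ± 0.059 and 5.21 ± 0.054 (SD, n = 5 each).

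Among the 9 cushion and EMT factors, 0 were past the threshold in any comparison (limma), with 0, 0 and 1 at an unadjusted P-value under 0.05 (all genes 15.6%, 9.64% and 18.5%). Twist1, a factor of cushion mesenchyme (ENSMUSG00000035799, chr12:33957671-33959831), ran from 8.56 to 8.84 in WT hearts, with a median of 8.68. It was 8.55, 8.79, 8.74, 8.76 and 8.81 in Dp1Tyb hearts and 8.64, 8.67, 8.66, 8.65 and 8.53 in Dp1TybDyrk1a+/+/- hearts. Of the Dp1Tyb hearts, 4 lay above all Dp1TybDyrk1a+/+/- hearts and 1 lay at 8.55, near the lowest of them. The difference between both mutant groups was 0.10 (SE 0.048, limma adjusted P-value 0.27).

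Sox9, which cushion mesenchyme needs to expand (ENSMUSG00000000567, chr11:112782210-112787757), ran from 10.08 to 10.32 in WT hearts, with a median of 10.15. It was 10.28, 10.33, 10.18, 10.30 and 10.24 in Dp1Tyb hearts and 10.31, 10.48, 10.05, 10.10 and 10.10 in Dp1TybDyrk1a+/+/- hearts. The groups overlapped, with 1 Dp1Tyb heart above all WT hearts, and the highest WT heart, 10.32, was replicate 6. The difference between Dp1Tyb and WT was 0.097 (SE 0.053, limma adjusted P-value 0.40), and without both hearts that stood apart it was 0.11 and passed (limma adjusted P-value 0.0487, with a range of 0.0487 to 0.668 over the alternatives).

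Snai1 and Snai2, repressors of E-cadherin in EMT, were among the most variable members, with pooled SDs of 0.15 and 0.14. Their differences between Dp1Tyb and WT were 0.057 (95% interval -0.099 to 0.21) and -0.020 (95% interval -0.17 to 0.13). Zeb2, another EMT repressor, had a pooled SD of 0.16 and differed by -0.049 (95% interval -0.21 to 0.11), and Zeb1 by -0.047. Twist2 differed by 0.067, Msx1 by 0.021 and Msx2 by -0.059 (limma adjusted P-value 0.32).

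Other genes of the pathway, 66 in all of which 56 passed the filter, were tested in the same fit. This list was drawn up with earlier results of these data known. Between Dp1Tyb and WT hearts 4 of the 56 were higher and 0 lower (7.14%, against 3.08% of all genes). At an unadjusted P-value under 0.05 there were 10 of the 56, against 15.6% of all genes. Mstn, the growth factor myostatin, was 7.58 ± 0.076 (SD, n = 10) in WT and 7.81 ± 0.039 (SD, n = 5) in Dp1Tyb hearts, a difference of 0.23 (SE 0.046, limma adjusted P-value 0.0063). Itgav and Itgb8 encode both chains of an integrin that releases TGF-β from its latent complex. Itgav was higher by 0.15 (SE 0.035, limma adjusted P-value 0.019) and Itgb8 by 0.11 (SE 0.025, limma adjusted P-value 0.017). Bmper, a secreted modulator of BMPs, was higher by 0.19 (SE 0.048, limma adjusted P-value 0.033). In Dp1TybDyrk1a+/+/- hearts the differences to WT were 0.10 for Mstn, 0.088 for Itgav, 0.10 for Itgb8 and -0.026 for Bmper, and 0 of the 56 genes passed in limma, against 0.712% of all genes, with 14 at an unadjusted P-value under 0.05, against 9.64% of all genes. Between both mutant groups 1 of the 56 passed (1.79%, against 1.16% of all genes), Rgmb, a BMP coreceptor, which was higher in Dp1Tyb by 0.15 (SE 0.032, limma adjusted P-value 0.030). With embryo sex as a covariate, Mstn alone of these 5 calls passed, and Itgav, Itgb8, Bmper and Rgmb had differences of 0.14, 0.10, 0.19 and 0.16 with limma adjusted P-values of 0.092, 0.078, 0.088 and 0.083. Without Dp1Tyb replicate 1 or 5, Itgav and Itgb8 also missed the threshold, at limma adjusted P-values of 0.052 to 0.076, and Bmper missed it without WT replicate 2, 7 or 10 or Dp1Tyb replicate 2, 3 or 4, at 0.0533 to 0.124. Rgmb missed it without Dp1Tyb replicate 2, 3 or 4 or Dp1TybDyrk1a+/+/- replicate 3, 4 or 5, at 0.0551 to 0.081. It also missed it with lane as a covariate and with only the groups compared. Rgmb passed in 23 of 32 alternatives, with limma adjusted P-values of 0.0019 to 0.133 over all of them.

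Of 53 genes of cushion mesenchyme and its matrix, all tested, 3 were higher and 0 lower in Dp1Tyb than in WT hearts (5.66%, against 3.08% of all genes). At an unadjusted P-value under 0.05 there were 12 of the 53, against 15.6% of all genes. This list too was drawn up with earlier results of these data known. Has2, the hyaluronan synthase that fills the cushions with matrix, was 8.50 ± 0.044 (SD, n = 10) in WT and 8.69 ± 0.032 (SD, n = 5) in Dp1Tyb hearts. The lowest Dp1Tyb heart, at 8.64, lay above the highest WT heart, at 8.54. The difference was 0.19 (SE 0.027, limma adjusted P-value 0.00011), past the threshold in all 32 alternatives. In Dp1TybDyrk1a+/+/- hearts Has2 was 8.60 ± 0.058 (SD, n = 5), higher than WT by 0.098 (limma adjusted P-value 0.14). The difference between both mutant groups was 0.093 (limma adjusted P-value 0.12), and 0.11 without both hearts that stood apart, which passed (limma adjusted P-value 0.037). The other 2 genes, the proteases Adamts1 and Adamts5 of the matrix, lie in the duplicated region. They were higher by 0.31 and 0.40 in Dp1Tyb and by 0.22 and 0.37 in Dp1TybDyrk1a+/+/- hearts. The latter comparison had only these 2 calls among the 53 genes (3.77%, against 0.712% of all genes). The share of 5.66% in Dp1Tyb against WT also counts both, and Has2 was its only call outside the duplicated region. Between both mutant groups 0 of the 53 passed in limma, against 1.16% of all genes, with 10 at an unadjusted P-value under 0.05, against 18.5% of all genes. The 8 fibroblast and mesenchyme markers, among them Col1a1, Col1a2, Col3a1, Postn and Pdgfra, which the cushion list also holds, all had differences above 0 in Dp1Tyb against WT, with a median of 0.098 and 0 called, and their summed log2 level ran from 16.93 to 17.16 in Dp1Tyb, from 16.60 to 17.13 in WT and from 16.65 to 17.16 in Dp1TybDyrk1a+/+/- hearts. Between both mutant groups their median difference was 0.14, with 8 of 8 above 0. In Dp1TybDyrk1a+/+/- against WT it was -0.026, with 3 of 8 above 0. The 9 cardiomyocyte markers had a median difference of -0.10 in Dp1Tyb against WT, with 3 above 0, and of -0.12 between both mutant groups, with 1 above 0, and their summed log2 level ran from 18.75 to 18.96 in Dp1Tyb, from 18.75 to 19.16 in WT and from 18.86 to 19.01 in Dp1TybDyrk1a+/+/- hearts. In Dp1TybDyrk1a+/+/- against WT the cardiomyocyte median was 0.062, with 7 of 9 above 0. Medians of other marker lists between both mutant groups were 0.15 for red cells, 0.12 for lung and liver and 0.090 for neural crest. They were -0.073 for smooth muscle, -0.030 for endocardium, -0.0099 for epicardium and 0.035 for macrophages. The part of any marker list in the differences of the members and of the pathway and cushion genes was not tested.

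The differences of the members moved with the GC content of their transcripts. Over the 44 genes, Spearman's rho between GC content and the difference was 0.59 in Dp1Tyb against WT, -0.35 in Dp1TybDyrk1a+/+/- against WT and 0.62 between both mutant groups. These are descriptions across genes, which are not independent replicates, and over 15168 genes the values were 0.29, -0.31 and 0.43. For the 22 members with a GC content above the members' median of 49.7% the median difference between Dp1Tyb and WT was 0.048, and for the other 22 it was -0.016. All genes divided at the same GC content had medians of 0.012 and -0.013. In single hearts, the rho of all genes' deviation from the WT mean with GC content was between 0.17 and 0.26 in the Dp1Tyb hearts, between -0.22 and 0.21 in WT and between -0.26 and 0.05 in Dp1TybDyrk1a+/+/- hearts. The lowest WT value was that of replicate 6, which stood apart, followed by -0.11 in replicate 10. In the last group the lowest was replicate 2, which also stood apart, followed by -0.25 and -0.23 in replicates 5 and 3. The WT mean includes each WT heart itself, and rho over the members without both hearts that stood apart was not tested. GC content and genotype overlap in this way in these libraries, and the part of base composition in the differences was not tested beyond the corrected fit.

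**Figure D4:**
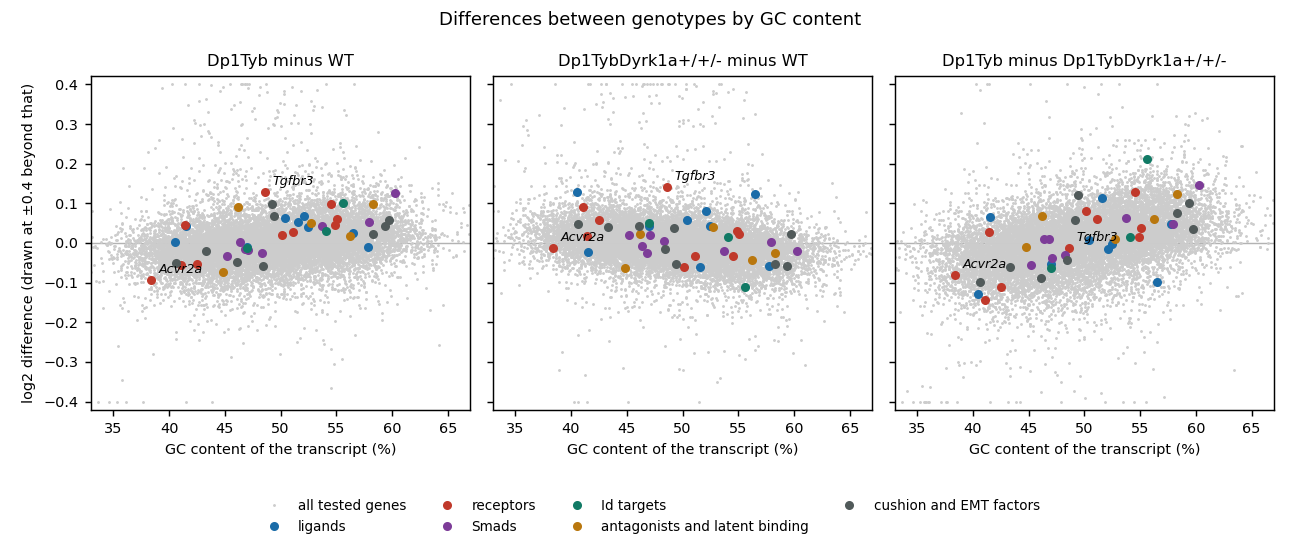
Log2 difference between genotypes (y axis, drawn at 0.4 or -0.4 where beyond) against the GC content of the transcript in percent (x axis), in 3 panels for the 3 comparisons. Grey points are all tested genes and coloured points are the 44 genes by role. In the left panel Acvr2a lies at the lowest GC content of the members, and the coloured points rise to the right in the left and right panels.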

How the data were processed

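The authors deposited 1 table of log2 normalized counts for 48795 Ensembl genes in 20 hearts, normalized together, and the transformation is not named in the sources used here. The submitters' processing notes list Trimmomatic 0.36, STAR 2.5.2a, RSEM 1.2.31, DESeq2 and GRCm38. The log2 values were used as deposited. Genes were named with GENCODE M39, and coordinates come from RefSeq GRCm38.p6. GC content is that of the longest transcript, and length is the union of exons.

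The 15304 genes averaging 10 or more normalized counts entered 1 limma model (version 3.58.1, R 4.3.3) with a mean for each genotype over the 20 hearts and a trended prior variance, and P-values were adjusted by Benjamini-Hochberg. The authors used DESeq2, which needs counts. Each heart is a separate embryo. The members, lists and roles were chosen with earlier results of these data known. Values by heart are given for members past the threshold and, in each role, for the member with the smallest P-value and that with the highest level per length, and other members and lists by counts and selected values. Lists of markers and of other pathway and cushion genes were described by counts. Alternatives covered filters, pseudocount, normalization, limma settings, lane, sex and each heart left out. The GC correction and the fit without both hearts that stood apart were chosen after seeing the data. Python 3.11.15 and scipy 1.17.1 made the other tables.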

Additional observations from a re-analysis of the deposited data

Results flagged for a closer look

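Of 132 sets examined, the 44 members in each of the 3 genotypes, 25 values in 18 members lay farther from the other hearts of their group than Dixon's 95% critical value, which chance exceeds in about 1 of 20 groups. Dp1TybDyrk1a+/+/- replicate 2 held 11 of them and WT replicate 6 held 8, the 2 hearts that stood apart over all genes.

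In Dp1TybDyrk1a+/+/- replicate 2 the log2 value was the highest of its group for the ligands Tgfb1 at 9.53 and Tgfb2 at 11.94. It was also the highest for the receptors Bmpr1a at 12.56, Tgfbr2 at 10.58 and Bmpr2 at 12.91, for Smad2 at 10.44, and for the EMT factors Snai2 at 9.03, Zeb1 at 11.29 and Zeb2 at 11.56. It was the lowest for Smad7 at 9.60 and Id3 at 9.73.

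In WT replicate 6 the log2 value was the highest of its group for Tgfb2 at 11.74, Bmpr1a at 12.46 and Zeb1 at 11.11. It was the lowest for Acvr2b at 6.92, Smad5 at 11.31, Smad7 at 9.66, Id3 at 9.90 and Ltbp1 at 12.22. Tgfb2, Bmpr1a and Zeb1 were thus high, and Smad7 and Id3 low, in both hearts.

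The other 6 values were in 6 different hearts. Eng was high in Dp1TybDyrk1a+/+/- replicate 4 at 11.87, Msx2 was high in Dp1Tyb replicate 2 at 6.46 and Snai2 was high in WT replicate 9 at 8.94. Twist1 was low in Dp1Tyb replicate 1 at 8.55 and in Dp1TybDyrk1a+/+/- replicate 5 at 8.53, and Twist2 was low in Dp1Tyb replicate 5 at 5.93.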

How the results depend on the processing

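No alternative reversed a difference of a member that was called. Counts of members past the threshold in Dp1Tyb against WT, 1 as reported, were 2 when genes had to average 100 normalized counts, 3 after quantile normalization, 4 with a weight per heart, 2 with lane as a covariate, 0 with embryo sex as a covariate, 3 with only the groups compared and 4 without both hearts that stood apart. After the GC correction the count was again 1, but the member called was Tgfbr3 and not Acvr2a. In Dp1TybDyrk1a+/+/- against WT they were 3 with weights and 1 without both hearts, and between both mutant groups 6 and 2. The median difference over members in Dp1TybDyrk1a+/+/- against WT was -0.012 with weights and -0.013 without both hearts.

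Over all genes, Dp1Tyb against WT gave 471 calls as reported, 1422 with weights, 222 with embryo sex, 779 with only the groups compared and 1178 without both hearts. There were 430 when genes had to average 100 normalized counts, 453 after quantile normalization and 461 with lane, so calls over all genes moved as well. Dp1TybDyrk1a+/+/- against WT gave 109, 341 with weights and 212 without both hearts. Between both mutant groups there were 178, against 100 and 273 with a minimum count of 1 and 100, 1247 with weights, 29 with lane, 10 with sex, 3 with only the groups compared, 47 after the GC correction and 606 without both hearts.

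Leaving out 1 heart at a time gave 266 to 959 genes and 0 to 4 members in Dp1Tyb against WT. In Dp1TybDyrk1a+/+/- against WT it gave 88 to 158 genes, 0 to 1 members and a median over members of -0.013 to 0.024. Between both mutant groups it gave 30 to 404 genes. The 959 genes and 4 members, Tgfbr3, Acvr2a, Smad6 and Grem1, came without Dp1TybDyrk1a+/+/- replicate 2, and the 266 genes and 0 members without Dp1Tyb replicate 3. The causes were not tested. No paired analysis was possible because the replicate numbers follow the order of the samples and the labels tie no hearts of different genotypes together. Library depth is unknown, so limits from depth could not be given.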
